A study of Mus musculus with 9 samples.

Results

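The genes described here are 10 that act early in lymphocyte development, namely Ltb, Satb1, Ikzf1, Ikzf2, Tcf7, Lef1, Blnk, Rag1, Dntt and Ebf1. They were taken by symbol, and each symbol matched a single row in the tables of all 9 libraries, so they are 10 of the 55488 genes listed. The RNA came from sorted cells of C57BL/6 mouse fetal livers at embryonic day 14.5, with the lysate of 100 cells in each library and 3 libraries in each of 3 groups. Evi1 HSC cells came from Tie2-Cre::ROSA-Evi1 embryos and were sorted as GFP+ cells with the surface markers of haematopoietic stem cells (HSCs), namely CD150+, CD48-, c-Kit+, Sca-1+ and no lineage markers. Tie2-Cre is a recombinase driver active in endothelial and blood cells, so recombination is not limited to HSCs. WT HSC cells met the same gate without the GFP criterion and came from ROSA-Evi1 embryos, and WT KL cells were c-Kit+, Sca-1- and lineage-negative cells from that genotype. Both WT groups thus carried the ROSA-Evi1 allele without Cre. No label says whether embryos were pooled or whether the libraries of a group came from separate embryos, so each p-value measures only the spread between these libraries. Evi1 HSC 3, WT HSC 1 and WT KL 2 had 14.1 to 25.3 TPM of the Y-linked gene Ddx3y and at most 0.340 TPM of Xist. Every other library had 194 to 372 TPM of Xist, the RNA of the inactive X, and 0 of Ddx3y. Each group thus held libraries of both sexes, not all from a single embryo. The part of sex in the spread was not tested.

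Blood stem cells can transcribe some lymphoid genes at low levels before any lineage is chosen, a state called lymphoid priming. The Ikaros zinc finger factors and the chromatin organiser SATB1 act in stem and early progenitor cells as well as in lymphocytes, and TCF-1 and LEF-1 carry Wnt and T lineage programmes. RAG1 and the terminal transferase encoded by Dntt assemble antigen receptor genes, EBF1 commits progenitors to the B lineage, and BLNK is the adaptor below the pre-B cell receptor. In the mouse, the fetal liver is a site of B lymphopoiesis.

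Of the 9 libraries, 2 went against their labels, and results that rest on them are given with and without them. Hlf, a stem cell transcription factor, stood at 139.5 to 194 TPM in the Evi1 HSC libraries, at 153 and 189 TPM in WT HSC 1 and 2, and at 1.83 and 2.19 TPM in WT KL 2 and 3. The library labelled WT HSC 3 had 0.631 TPM and the library labelled WT KL 1 had 164 TPM. For Mpo, a granule enzyme of myeloid progenitors, the same libraries had 579 and 13.6 TPM, in that order. Mecom, the gene of Evi1, was at 176 to 210 TPM in Evi1 HSC, and these libraries had 0.0167 and 90.8 TPM. Genes at 1 TPM or more numbered 15422 to 18806 per library.

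A member was called on in a group when it reached 1 TPM in every library, off when it stayed under 1 TPM in every library, and mixed otherwise. TPM is a share of all transcripts, scaled by gene length. In Evi1 HSC, 4 members were on (Ltb, Satb1, Ikzf1 and Ikzf2), 5 were off (Lef1, Blnk, Rag1, Dntt and Ebf1), and Tcf7 was mixed. As labelled, WT HSC had 3 on, 3 off and 4 mixed, and WT KL had 3 on, 5 off and 2 mixed. Without the 2 libraries against their labels, WT HSC had 5 on and 5 off, and WT KL had 3 on (Satb1, Ikzf1 and Ikzf2), 6 off and Rag1 mixed. The 10 members summed to 224, 198 and 211 TPM in Evi1 HSC, against 154, 171 and 67.2 TPM in WT HSC and 191, 59.5 and 50.9 TPM in WT KL. The low sums belonged to the library labelled WT HSC 3 and to WT KL 2 and 3. In RNA from sorted pools, fewer cells expressing a gene and less RNA of it per cell cannot be told apart.

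**Figure D1:**
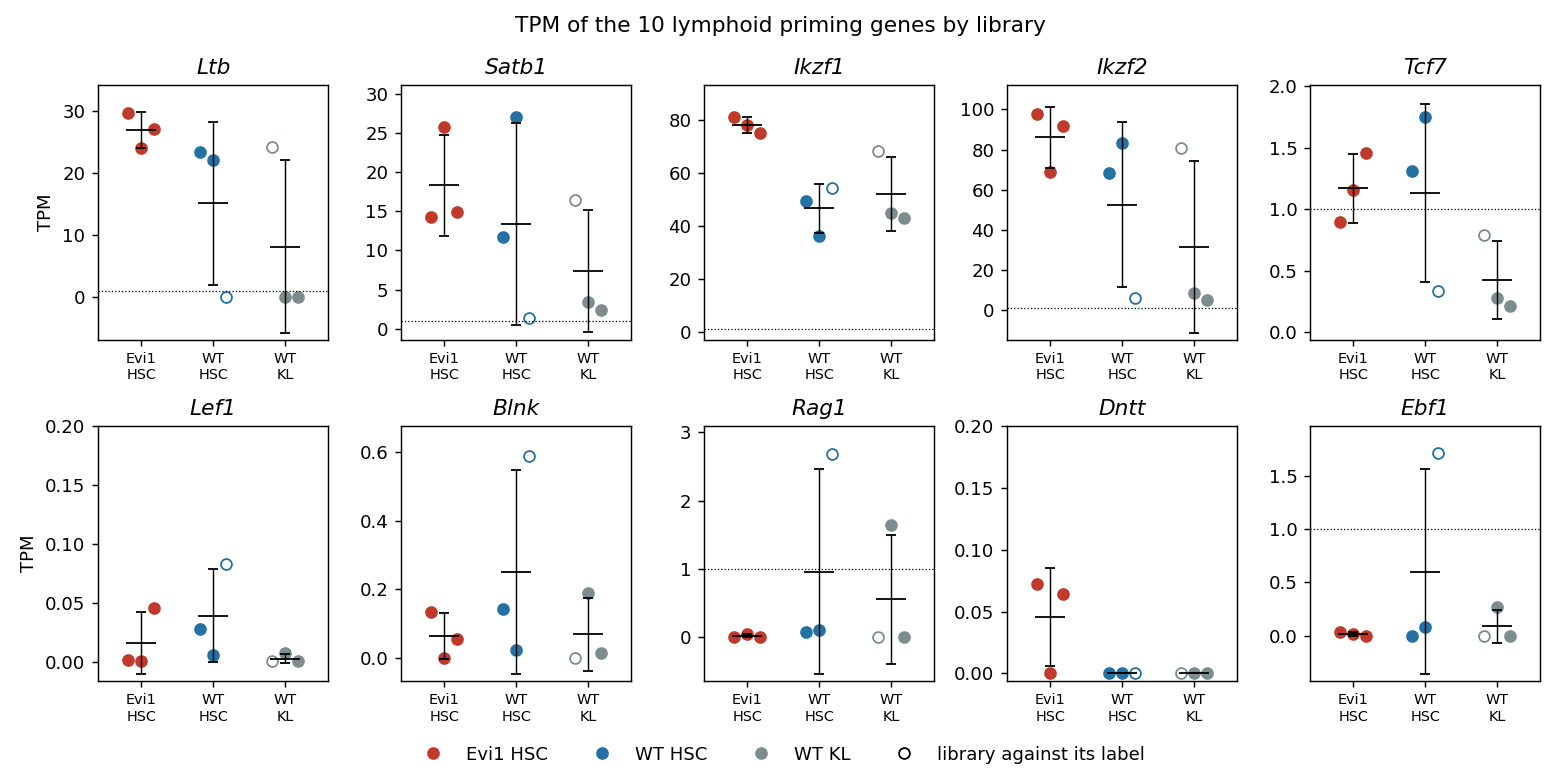
TPM of each of the 10 genes (linear axes, which differ between panels) in the 3 libraries of each group. Points are libraries, hollow points the 2 libraries against their labels, black bars the mean ± SD of the 3 libraries as labelled, and the dotted line 1 TPM. Ltb, Satb1, Ikzf1 and Ikzf2 reached 1 TPM in all 3 Evi1 HSC libraries, and Lef1, Blnk and Dntt stayed under 1 TPM in all 9.

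Ltb encodes lymphotoxin beta, a membrane ligand that lymphocytes and lymphoid tissue inducer cells use to organise lymphoid tissue. The gene lies on chromosome 17 (35194439 to 35196320, plus strand, on GRCm38 with the GENCODE annotation). It had 29.8, 24.0 and 27.2 TPM in Evi1 HSC, against 23.4, 22.2 and 0 TPM in WT HSC and 24.3, 0.117 and 0.122 TPM in WT KL. The value of 0 was in the library labelled WT HSC 3, and the value of 24.3 TPM in the library labelled WT KL 1. Its libraries thus stood either between 22.2 and 29.8 TPM or under 0.2 TPM, with none between.

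Ikzf2 encodes Helios, an Ikaros family zinc finger factor found in stem cells and regulatory T cells. Its position is chromosome 1, 69531214 to 69687245, minus strand, and Gm29114 on the opposite strand overlaps 144 of the 11613 bases in its exons. It had 97.5, 68.8 and 91.8 TPM in Evi1 HSC, against 68.2, 83.5 and 6.16 TPM in WT HSC and 80.8, 8.64 and 5.16 TPM in WT KL. It was the member with the highest median over the 9 libraries, 68.8 TPM, and was on in all 3 groups. The low values were again those of the library labelled WT HSC 3 and of WT KL 2 and 3.

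Satb1 encodes a chromatin organiser that is needed for T cell development and is used by stem cells with lymphoid potential. It runs on chromosome 17 (51736187 to 51833290, minus strand). It had 14.2, 25.8 and 14.9 TPM in Evi1 HSC, against 11.7, 27.1 and 1.34 TPM in WT HSC and 16.4, 3.41 and 2.33 TPM in WT KL. The libraries of a single group spread widely, with 11.7 and 27.1 TPM in WT HSC 1 and 2, so the spread inside the groups exceeded any gap between Evi1 HSC and these WT HSC libraries.

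Ikzf1 encodes Ikaros, the founding member of the family, which is required for lymphocytes and is also present in stem and myeloid progenitor cells. It lies on chromosome 11 (11685003 to 11772926, plus strand). It had 81.1, 78.0 and 75.2 TPM in Evi1 HSC, against 49.5, 36.4 and 54.3 TPM in WT HSC and 68.2, 44.98 and 43.0 TPM in WT KL. All 3 Evi1 HSC libraries lay above the 3 libraries labelled WT HSC, as they did for 9.19% of all genes tested over 9 libraries. Unlike Ltb, Satb1 and Ikzf2, it was not low in the library labelled WT HSC 3, which at 54.3 TPM was the highest of the WT HSC libraries. Its mean was 78.1 ± 2.95 TPM in Evi1 HSC, against 46.7 ± 9.25 TPM in WT HSC and 52.1 ± 14.0 TPM in WT KL (SD, n = 3 each, as labelled).

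Tcf7 encodes TCF-1, a Wnt pathway factor and an early regulator of the T and innate lymphoid lineages. It is on chromosome 11 (52252371 to 52283014, minus strand). It stood close to the threshold, with 0.896, 1.16 and 1.46 TPM in Evi1 HSC, against 1.31, 1.75 and 0.337 TPM in WT HSC and 0.792, 0.278 and 0.212 TPM in WT KL. The Evi1 HSC values and those of WT HSC 1 and 2 overlapped, and WT KL 2 and 3 lay under all of them. Lef1, the related factor LEF-1, lies on chromosome 3 (131110471 to 131224356, plus strand) and did not exceed 0.0831 TPM in any library. With 1208 of its 8788 exonic bases shared with Gm43352 on the opposite strand, even these values may hold reads of another transcript.

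Blnk, Rag1, Dntt and Ebf1 are used by committed lymphoid cells, and none of them reached 0.2 TPM in any Evi1 HSC library or in WT HSC 1 or 2. Rag1, a subunit of the recombinase that cuts antigen receptor genes, lies on chromosome 2 (101638282 to 101649501, minus strand). It had 0, 0.0440 and 0 TPM in Evi1 HSC, against 0.0650, 0.09999 and 2.69 TPM in WT HSC and 0, 1.64 and 0 TPM in WT KL. Only the library labelled WT HSC 3 and WT KL 2 passed 1 TPM. Ebf1, a B lineage commitment factor on chromosome 11 (44617317 to 45008091, plus strand), had 0.0302, 0.0127 and 0 TPM in Evi1 HSC, against 0, 0.0845 and 1.71 TPM in WT HSC and 0, 0.268 and 0 TPM in WT KL. The same 2 libraries held its highest values. Blnk, on chromosome 19 (40928927 to 40994535, minus strand), had 0.134, 0 and 0.0557 TPM in Evi1 HSC, against 0.143, 0.0228 and 0.587 TPM in WT HSC and 0, 0.190 and 0.0155 TPM in WT KL. Those 2 libraries were highest once more, though both stayed under 1 TPM. Dntt, the template-free polymerase that adds bases at antigen receptor joins, lies beside Blnk on chromosome 19 (41029275 to 41059525, plus strand). It had 0.0722, 0 and 0.0641 TPM in Evi1 HSC and was listed at 0 in all 6 WT libraries. Read depth is unknown for TPM, so a value of 0 means not detected at an unknown depth.

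Promoters are shown for Ltb, which was either clearly present or nearly absent in a library, for Satb1, which was on in every library, and for Rag1, which was seen in few. Each is 300 bases, from 250 before to 50 after a RefSeq transcript start on GRCm38.p6, written in the direction of the gene. Capitals mark matches on either strand to CAGGTG (the E-box bound by E proteins, read as CACCTG on the other strand), TGTGGT (RUNX) or TGGGAA (Ikaros, which contains the ETS core GGAA, not marked).
Ltb, chr17:35194257-35194556, plus strand: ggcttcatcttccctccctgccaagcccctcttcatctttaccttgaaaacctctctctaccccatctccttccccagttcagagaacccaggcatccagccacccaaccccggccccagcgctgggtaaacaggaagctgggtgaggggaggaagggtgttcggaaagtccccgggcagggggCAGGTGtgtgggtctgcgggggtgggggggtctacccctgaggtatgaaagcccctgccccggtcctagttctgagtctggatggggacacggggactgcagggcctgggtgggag
Satb1, chr17:51833241-51833540, minus strand, the first of 5 starts: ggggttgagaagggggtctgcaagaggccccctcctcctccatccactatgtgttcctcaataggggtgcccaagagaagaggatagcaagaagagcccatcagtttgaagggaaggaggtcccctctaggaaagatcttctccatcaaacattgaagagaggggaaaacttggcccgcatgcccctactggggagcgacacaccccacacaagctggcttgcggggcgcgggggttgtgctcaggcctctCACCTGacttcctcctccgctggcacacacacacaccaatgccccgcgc
Rag1, chr2:101649483-101649782, minus strand: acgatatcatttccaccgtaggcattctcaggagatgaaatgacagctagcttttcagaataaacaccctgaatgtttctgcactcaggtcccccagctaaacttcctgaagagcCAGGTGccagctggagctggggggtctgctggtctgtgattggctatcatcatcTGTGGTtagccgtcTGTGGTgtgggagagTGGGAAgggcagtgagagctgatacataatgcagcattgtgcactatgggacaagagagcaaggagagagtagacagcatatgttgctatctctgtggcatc
CAGGTG was in all 3 of these windows. Promoter windows were found for 9 of the 10 members, 19 windows in all, and CAGGTG was in 7 of the 19 windows, those of 6 genes (Ltb, Satb1, Tcf7, Lef1, Blnk and Rag1), against 20.2% of all 32851 RefSeq promoter windows. TGTGGT occurred in 2 of the 19 windows, those of Rag1 and Ebf1, and in 16.8% of all windows. TGGGAA occurred in 7 of the 19, from Satb1, Lef1, Rag1 and Ebf1, and in 25.6% of all. CTTTGA, the TCF and LEF motif, was in 2 of the 19, from Lef1 and Ebf1, and in 16.0% of all windows. GATAAG, a motif shared by GATA factors and Evi1, was in 2 of the 19, from Tcf7 and Blnk, and in 7.44% of all. The palindromic EBF motif was in none of the 19 and in 0.904% of all. A match of letters does not show that a factor binds there, and its absence from a window shows nothing about the factor.

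Evi1 HSC and WT HSC, the groups that differ by Cre and the GFP gate, were compared first. No member differed at the adjusted threshold. Genes were tested on log2(TPM + 1) with limma when they reached 1 TPM in at least 3 libraries of the fit, and called at an adjusted p under 0.05. Ltb, Satb1, Ikzf1, Ikzf2 and Tcf7 passed that filter in the fits over 9 libraries as labelled and over the 7 that accord with their labels, while Lef1, Blnk, Rag1, Dntt and Ebf1 were not tested. Over 9 libraries, 0 of 5 members were called, where 0.00514% of all tested genes were, and 1 had an unadjusted p under 0.05, as did 4.66% of all. Over 7 libraries, 0 of 5 were called, where 0.206% of all tested genes were, and again 1 had an unadjusted p under 0.05, as did 8.45% of all.

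Ikzf1 was the member nearest to a call between the HSC groups. Its log2 fold change was 0.86 (SE 0.15, 95% interval 0.51 to 1.21) over 7 libraries, with a limma adjusted p of 0.123, and 0.75 (SE 0.22) over 9, with an adjusted p of 0.791. The Evi1 HSC libraries did not overlap the WT HSC libraries as labelled for Ikzf1 and Ltb among the tested members, both higher in Evi1 HSC, and 9.19% of all tested genes were likewise higher without overlap. For Ltb the 7-library difference was 0.23 (SE 0.16, interval -0.14 to 0.60) and for Ikzf2 it was 0.17 (SE 0.24, interval -0.40 to 0.74). For Satb1 it was -0.0195 (SE 0.40, interval -0.96 to 0.92), and for Tcf7 -0.23 (SE 0.20, interval -0.71 to 0.26). The adjusted p-values of these 4 in the 7-library limma fit ran from 0.757 to 0.995, and all 4 intervals include 0. Over 9 libraries, Ltb, Ikzf2 and Satb1 were 1.75, 1.31 and 0.98 higher with SEs of 1.48, 1.12 and 0.92, and the library labelled WT HSC 3 was far under the other WT HSC libraries for each of them.

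The comparison of WT HSC with WT KL sets stem cells beside the progenitors of the same embryos' genotype. In the 7-library fit, 4 of the 5 tested members were higher in WT HSC (Ltb, Ikzf2, Satb1 and Tcf7), none was lower, and Ikzf1 did not pass. In the same fit, 37.7% of all tested genes were called, 27.3% higher and 10.4% lower. In that fit Ltb and Tcf7 passed the filter through HSC libraries alone, both being under 1 TPM in WT KL 2 and 3, so they could enter only by being higher in HSC libraries. The other 5 members, at 1 TPM or more in at most 2 libraries, could not enter. A gene at 1 TPM or more in WT KL 2 and 3 alone could not enter either. The filter thus limits the counts and shares of lower genes. The counts here and for Evi1 HSC against WT KL are therefore a description of the tested members, not of all 10. The libraries labelled WT HSC 3 and WT KL 1 were left out because their own expression ran against this contrast. The 7-library p-values against WT KL are conditional on that choice and do not allow for it.

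Ltb differed most, by a log2 fold change of 4.41 (SE 0.17, limma adjusted p = 2.64e-05), with 23.4 and 22.2 TPM in WT HSC 1 and 2 against 0.117 and 0.122 TPM in WT KL 2 and 3. Since the filter itself required high HSC values for Ltb and Tcf7, both were also fitted with no filter. The limma adjusted p was then 0.000367 for Ltb and 0.0179 for Tcf7. That fit used the same 7 libraries and removed only the filter, so it is not independent support for either call. Ikzf2 was higher by 3.31 (SE 0.26, adjusted p = 0.000255 in limma) and Satb1 by 2.30 (SE 0.43, adjusted p = 0.00679). Ikzf2 and Satb1 were not off in WT KL but lower, since WT KL 2 and 3 still held 8.64 and 5.16 TPM of Ikzf2 and 3.41 and 2.33 TPM of Satb1. Tcf7 was higher by 1.02 (SE 0.22, adjusted p = 0.0124 in limma), a call that was lost without WT HSC 2 (adjusted p = 0.0632), without WT KL 2 (0.0585) or without WT KL 3 (0.0722). For Ikzf1 the difference was -0.0506 (SE 0.16, interval -0.43 to 0.33, limma adjusted p = 0.831), which bounds it to under 0.5 on the log2 scale in either direction. With all 9 libraries as labelled, none of the 5 was called, where 0.00514% of all tested genes were, and none had an unadjusted p under 0.05, where 1.45% of all did. The limma adjusted p was then 0.963 for each, and the log2 fold changes ran from -0.14 for Ikzf1 to 1.39 for Ltb.

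Evi1 HSC against WT KL shares the WT KL libraries with the comparison above, so the 2 are not independent. All 5 tested members, of which Ltb and Tcf7 had entered through HSC libraries alone, were higher in Evi1 HSC over 7 libraries, where 45.7% of all tested genes were called, 31.9% higher and 13.9% lower. The log2 fold changes in limma were 4.64 for Ltb (SE 0.16, adjusted p = 1.01e-05), 3.48 for Ikzf2 (SE 0.24, adjusted p = 8.52e-05) and 2.28 for Satb1 (SE 0.40, adjusted p = 0.00366). Ikzf1 was higher by 0.81 (SE 0.15, adjusted p = 0.00446 in limma), with 75.2 to 81.1 TPM in Evi1 HSC against 44.98 and 43.0 TPM in WT KL 2 and 3. Tcf7 was higher by 0.79 (SE 0.20, adjusted p = 0.018 in limma), a call lost without WT KL 2 (adjusted p = 0.0794) or WT KL 3 (0.102). Over the 9 libraries as labelled none was called, where 0.0103% of all tested genes were, and 1 had an unadjusted p under 0.05, as did 15.2% of all. The log2 fold changes were then 3.14, 2.35, 1.55, 0.61 and 0.62 for Ltb, Ikzf2, Satb1, Ikzf1 and Tcf7, with limma adjusted p-values of 0.31 to 0.341.

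**Figure D2:**
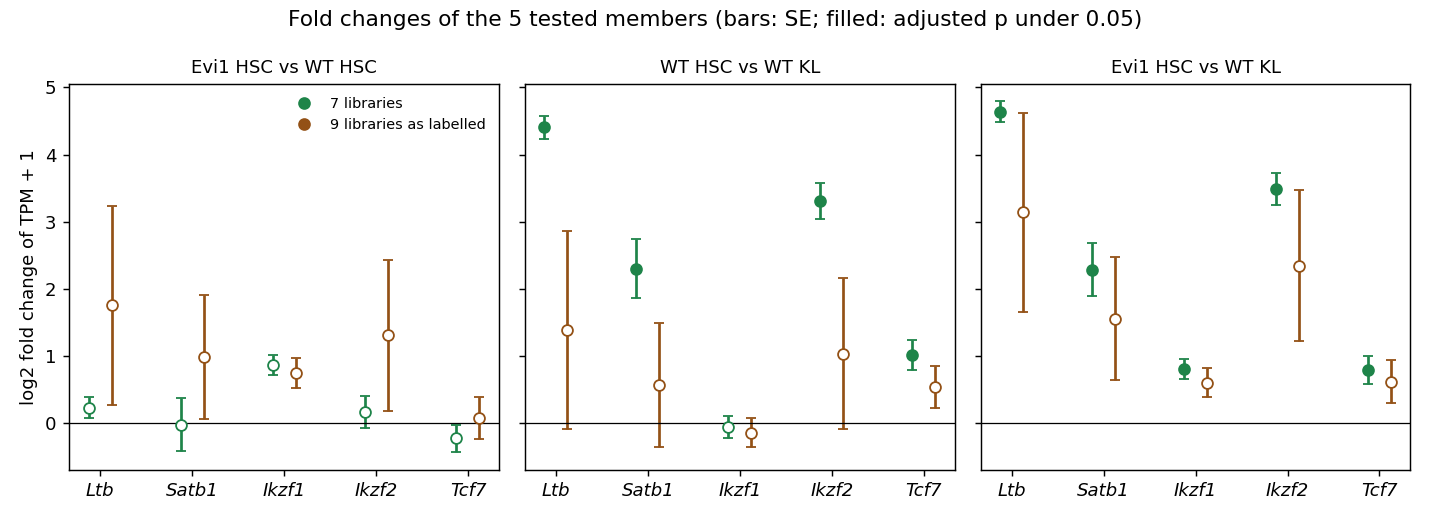
Differences of mean log2(TPM + 1) for the 5 tested members in the 3 comparisons, with SE bars. Filled points have a limma adjusted p under 0.05, green marks the fit over 7 libraries and brown the fit over 9 as labelled. Filled points occur in the 7-library fit only, 4 for WT HSC against WT KL and 5 for Evi1 HSC against WT KL.

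The genes most like each tested member across the 9 libraries were sought among the 9024 genes that averaged 5 TPM or more, by Pearson r of log2(TPM + 1). Ltb, Ikzf2 and Satb1 were low in the same 3 libraries, and r is given as a description only. Nearest to Ltb were Mir99ahg, Pglyrp2 and Hoxa10 (r of at least 0.999 each), and Hoxa10 had 8.49, 7.26 and 8.89 TPM in Evi1 HSC and was listed at 0 in the 3 libraries where Ltb was under 0.2 TPM. Etv6, Fam160b1 and Zscan26 were nearest to Ikzf2 (0.998 each), with Etv6 at 101.3 to 113 TPM in Evi1 HSC, against 23.2 and 17.4 TPM in WT KL 2 and 3. Zfp518a, Bnip3l and Golph3l were nearest to Satb1 (0.983 to 0.990). Ikzf1 had a different set, led by Itgal (0.968), which encodes a leukocyte integrin chain and had 11.4, 9.89 and 12.4 TPM in Evi1 HSC, against 6.37, 4.77 and 7.41 TPM in WT HSC and 8.71, 5.59 and 5.97 TPM in WT KL. Tnks and Ccdc82 followed it (0.944 each). Zfp213, Foxp1 and Ldb2 were nearest to Tcf7 (0.965 to 0.967).

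Genes that work with the members were examined as lists, in the 7-library fit. In the fit over 9 libraries as labelled, no gene of these lists was called in any comparison, and at 0.00514 to 0.0103% few of all tested genes were. Over 7 libraries, 31.9% of all tested genes were higher and 13.9% lower in Evi1 HSC than in WT KL, and 27.3% were higher and 10.4% lower in WT HSC than in WT KL, and the counts of each list stand against these shares. Some tested genes passed the filter through HSC libraries alone, namely 2 of the lymphotoxin list, 1 of the receptor list, 3 of the TCF and LEF list (Tcf7l1 among them), 3 of the T lineage list (Gata3, Tox and Rora), 1 each of the E protein, BLNK partner and recombination lists and none of the Ikaros list, so the counts and medians are descriptions only. Genes at 1 TPM or more in WT KL 2 and 3 alone could not enter, which limits the counts and shares of lower genes. Of 10 lymphotoxin pathway genes, 8 were tested, and 7 were higher and 1 lower in Evi1 HSC and in WT HSC than in WT KL. Ltbr, the receptor of lymphotoxin beta, had 14.3, 16.5 and 17.3 TPM in Evi1 HSC, with 12.7 and 12.05 TPM in WT HSC 1 and 2, against 4.85 and 3.10 TPM in WT KL 2 and 3. Tnfrsf14, the HVEM receptor, was the lower one, at 11.9, 11.8 and 12.3 TPM in Evi1 HSC, with 22.4 and 14.0 TPM in WT HSC 1 and 2, against 58.2 and 56.7 TPM in WT KL 2 and 3.

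Lymphoid cytokine and homing receptors, 12 genes, split like the members into present and absent ones. Of the 6 tested, 5 were higher in Evi1 HSC than in WT KL and 5 in WT HSC than in WT KL, with medians of 2.70 and 2.26 on the log2 scale. Cd27, a TNF receptor family member found on stem cells and lymphocytes, had 55.2, 47.6 and 52.4 TPM in Evi1 HSC, with 48.8 and 41.7 TPM in WT HSC 1 and 2, against 1.85 and 2.01 TPM in WT KL 2 and 3. Crlf2, which encodes the TSLP receptor chain, had 15.6 to 17.5 TPM in Evi1 HSC, with 13.2 and 15.98 TPM in WT HSC 1 and 2, against 1.75 and 1.47 TPM in WT KL 2 and 3. Il2rg, the common gamma chain, was also higher, though 30.5% of its exonic bases are shared with Gm20489. The interleukin-7 receptor gene Il7r, needed by lymphoid progenitors, did not exceed 0.693 TPM in any library, and its highest values were in the library labelled WT HSC 3 and in WT KL 2 (0.564 TPM).

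Ikaros family and partner chromatin factors had medians near 0 against WT KL. Of 9 tested among 12 listed, 2 were higher and 1 lower in Evi1 HSC than in WT KL, and 1 was higher and 1 lower in WT HSC than in WT KL, with medians of -0.069 and -0.11 against 0.28 and 0.26 for all genes. Mbd3, a subunit of the NuRD complex that Ikaros binds, was the lower one, at 57.7, 56.7 and 63.7 TPM in Evi1 HSC, with 65.9 and 59.3 TPM in WT HSC 1 and 2, against 93.0 and 89.1 TPM in WT KL 2 and 3. Hdac1, the deacetylase of that complex, was higher in Evi1 HSC than in WT KL by 0.45 (SE 0.13, limma adjusted p = 0.0265), with 92.3 to 98.9 TPM against 76.0 and 63.9 TPM. That difference ran from 0.33 to 0.57 over 13 alternatives, not all of which made the call. Over the 9 libraries as labelled it was 0.30, without a call (limma adjusted p = 0.343).

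TCF and LEF relatives and co-regulators held the only gene of these lymphoid lists called between the HSC groups. Tle1, a Groucho corepressor that TCF and LEF factors recruit, had 4.09, 4.46 and 4.42 TPM in Evi1 HSC, against 14.5, 14.7 and 4.94 TPM in WT HSC and 11.5, 11.4 and 7.91 TPM in WT KL. It was lower in Evi1 HSC than in WT HSC by a log2 fold change of -1.55 (SE 0.19, limma adjusted p = 0.041) over 7 libraries, and of -1.09 (adjusted p = 0.791) over 9. The 7-library call was lost without any 1 of the 7 libraries (adjusted p = 0.0915 to 0.186), with no filter (0.0699), with only the compared groups fitted (0.117) and with the replicate number as a block (0.286), although the value stayed between -1.73 and -1.50 in all these fits. Against WT KL, 8 of the 10 tested were higher in Evi1 HSC and 1, Tle1, lower. In WT HSC 7 were higher and none lower. Tcf7l1, which encodes TCF-3 of the same family, had 3.44, 3.25 and 3.42 TPM in Evi1 HSC, with 1.53 and 1.98 TPM in WT HSC 1 and 2, against 0 and 0.0236 TPM in WT KL 2 and 3.

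T lineage and innate lymphoid factors had 8 tested genes of 14, of which 6 were higher in Evi1 HSC than in WT KL and 5 in WT HSC than in WT KL, none lower. Of these, Gata3, Tox and Rora had entered through HSC libraries alone. Zbtb16 of the same list had 4.77 and 2.65 TPM in WT KL 2 and 3. It was under 1 TPM in Evi1 HSC and in WT HSC 1 and 2, so it could not enter. Gata3, a T cell and stem cell factor, had 1.88, 1.90 and 2.12 TPM in Evi1 HSC, with 2.38 and 2.89 TPM in WT HSC 1 and 2, and was listed at 0 in WT KL 2 and 3. Among E proteins, Id proteins and B lineage factors, 14 of 20 were tested. In Evi1 HSC 10 were higher and 1 lower than in WT KL, and in WT HSC 7 were higher and none lower. Mef2c, a MADS box factor of early lymphoid and myeloid cells, had 96.0, 67.0 and 128 TPM in Evi1 HSC, with 83.7 and 96.9 TPM in WT HSC 1 and 2, against 5.11 and 8.76 TPM in WT KL 2 and 3.

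Most of BLNK's signalling partners reached 1 TPM in HSC and in WT KL libraries alike, while Blnk was off in every group. Of 13 tested among 15, 11 were higher in Evi1 HSC than in WT KL and 10 in WT HSC than in WT KL, none lower, with a median of 1.81 in each comparison. Lcp2, the SLP-76 adaptor related to BLNK, had 26.5, 22.6 and 28.8 TPM in Evi1 HSC, with 21.8 and 28.5 TPM in WT HSC 1 and 2, against 1.41 and 0.926 TPM in WT KL 2 and 3. Plcg2, the phospholipase below these adaptors, had 109.7, 115 and 131 TPM in Evi1 HSC, with 104 and 111 TPM in WT HSC 1 and 2, against 18.7 and 11.1 TPM in WT KL 2 and 3. Recombination and end joining genes, used with RAG1 and in general DNA repair, had medians of -0.074 in Evi1 HSC and -0.089 in WT HSC against WT KL. Of 12 tested among 13, 2 were higher and 2 lower in Evi1 HSC than in WT KL, and 2 were lower in WT HSC than in WT KL. Xrcc6, the Ku70 end-binding protein, was a lower one, at 16.2, 15.6 and 17.1 TPM in Evi1 HSC, with 17.8 and 15.4 TPM in WT HSC 1 and 2, against 50.1 and 50.4 TPM in WT KL 2 and 3.

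**Figure D3:**
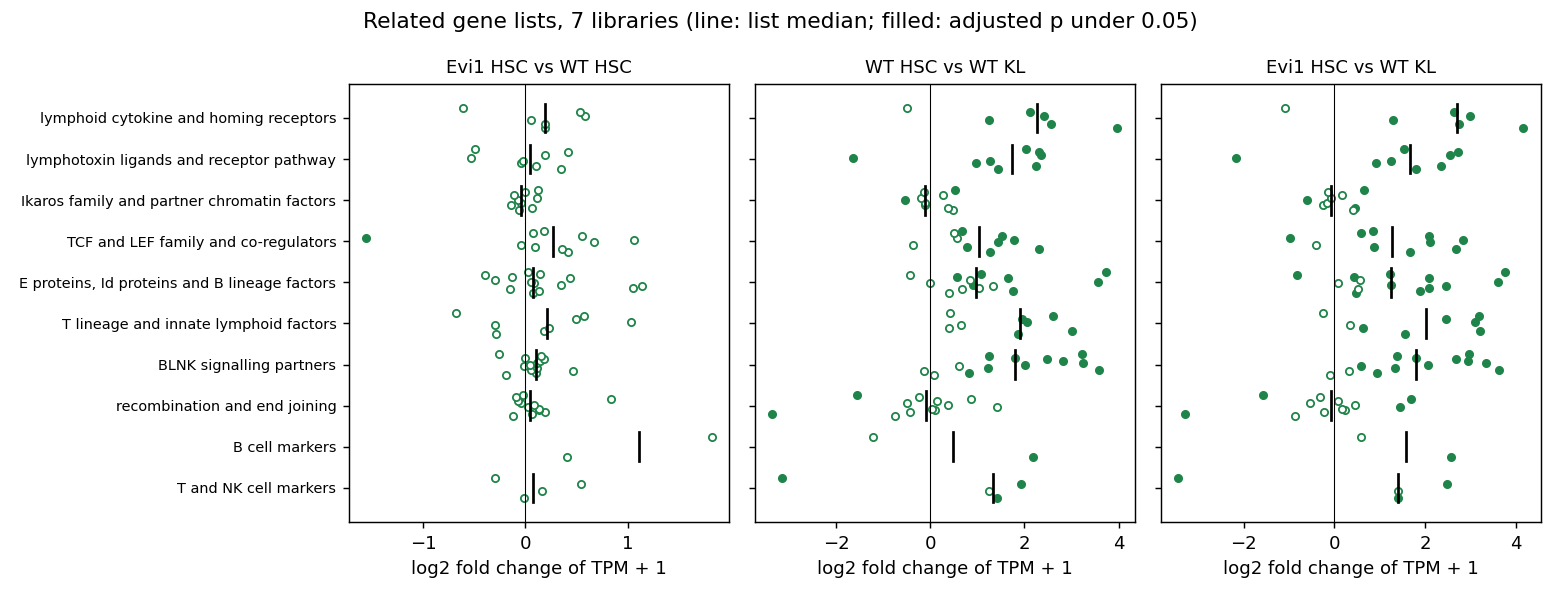
Differences of mean log2(TPM + 1) in the 7-library fit for the tested genes of each list, by comparison. Each point is a gene and each line the median of its list. Against WT KL, the medians of the Ikaros partner and the recombination lists lie near 0 and those of the BLNK partner list at 1.81.

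Markers of B and T cells were read beside the members, since the gate could hold such cells. Of 12 B cell markers, 2 to 3 reached 1 TPM in each Evi1 HSC library, against 1 in WT HSC 1 and 2 and 9 in the library labelled WT HSC 3, and 2, 4 and 1 in WT KL 1 to 3. Their summed level was 28.2 to 34.2 TPM in Evi1 HSC, against 18.4 to 31.6 TPM in WT HSC and 4.05 to 23.1 TPM in WT KL. Without the 2 libraries against their labels the WT ranges were 18.4 to 22.6 TPM in WT HSC and 4.05 to 15.4 TPM in WT KL. Much of that sum was Cd79b, a B cell receptor chain, at 22.7 to 24.998 TPM in Evi1 HSC, with 15.95 and 19.5 TPM in WT HSC 1 and 2, while its partner Cd79a did not exceed 1.22 TPM in any library. Ighm, the heavy chain of IgM, had 4.43, 2.20 and 7.80 TPM in Evi1 HSC, against 0.221, 0.883 and 8.94 TPM in WT HSC and 3.14, 5.64 and 0.883 TPM in WT KL. Over 7 libraries its log2 fold change between the HSC groups was 1.82 (SE 0.62, limma adjusted p = 0.493). Cd72, a coreceptor of B cells, had 0.107, 1.74 and 1.76 TPM in Evi1 HSC, against 0.212, 0.196 and 1.52 TPM in WT HSC and 0.0916, 0 and 0.968 TPM in WT KL. Ighm thus reached 1 TPM in every Evi1 HSC library and in neither WT HSC 1 nor 2. The libraries labelled WT HSC 3 and WT KL 1, and WT KL 2, reached it too. Igll1, a surrogate light chain gene of pre-B cells, was listed at 0 in all 3 Evi1 HSC libraries, and had 0.135, 0 and 8.72 TPM in WT HSC and 0, 1.13 and 0 TPM in WT KL. The library labelled WT HSC 3 and WT KL 2, which held the Rag1, Ebf1 and Blnk maxima, thus also held the Igll1 maxima. The part of B lineage cells in the Rag1, Ebf1 and Blnk values was not tested.

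Among 17 T and NK cell markers, 3 to 4 reached 1 TPM in each Evi1 HSC library, against 2 to 4 in WT HSC and 1 to 4 in WT KL. Their summed level was 14.1 to 17.2 TPM in Evi1 HSC, 9.02 to 22.7 TPM in WT HSC and 10.5 to 38.3 TPM in WT KL. Without the 2 libraries against their labels the WT HSC range was 9.02 to 17.1 TPM, and that of WT KL was as before. Of the defining markers, Cd3e and Cd2 were listed at 0 in all 9 libraries, and Cd3d and Cd3g did not exceed 0.1 TPM. Lck, a kinase of T cells, had 8.24, 6.37 and 5.66 TPM in Evi1 HSC, with 3.84 and 4.76 TPM in WT HSC 1 and 2, against 0.518 and 0.249 TPM in WT KL 2 and 3. Nkg7, a granule protein gene of NK and cytotoxic T cells, ran the other way, with 0.350, 2.38 and 0.185 TPM in Evi1 HSC, against 0.778, 1.62 and 20.6 TPM in WT HSC and 3.31, 36.0 and 8.98 TPM in WT KL. In the fit over 9 libraries it was not called against WT KL (limma adjusted p = 0.31 for Evi1 HSC and 0.963 for WT HSC). Over 7 libraries it was lower than in WT KL by a log2 fold change of -3.45 in Evi1 HSC (SE 0.65, limma adjusted p = 0.00528) and of -3.15 in WT HSC (SE 0.72, limma adjusted p = 0.0138), the second of which was called in 10 of 13 alternatives, with an adjusted p of up to 0.0665.

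Markers of other cells were read as well. Summed over 10 erythroid genes the level was 718 to 1752 TPM in Evi1 HSC, against 738 to 1417 TPM in WT HSC and 1285 to 3566 TPM in WT KL. Without the 2 libraries against their labels the ranges were 738 to 878 TPM in WT HSC and 1285 to 1292 TPM in WT KL. Most of the sum in Evi1 HSC was Hbb-bt, a beta globin gene, at 1429, 681 and 861 TPM. Hbb-bt had 545 and 619 TPM in WT HSC 1 and 2, against 187 and 165 TPM in WT KL 2 and 3. All 10 erythroid genes were tested over 7 libraries. Between the HSC groups, 4 were lower in Evi1 HSC and none higher, where 0.206% of all tested genes were called in either direction. The median log2 fold change of the 10 was -1.48, against 0.0025 for all genes, and no member was called. Hbb-bt, Slc4a1 and Alas2 had positive differences there, of 0.70, 0.83 and 0.23 (SE 0.28, 1.14 and 0.38), without a call. Gata1, a factor of the red cell lineage, had 4.20, 3.79 and 2.79 TPM in Evi1 HSC, with 17.3 and 18.2 TPM in WT HSC 1 and 2, against 107 and 118 TPM in WT KL 2 and 3. Klf1, another such factor, had 2.51, 0.474 and 0.110 TPM in Evi1 HSC, with 23.1 and 21.1 TPM in WT HSC 1 and 2, against 147 and 151 TPM in WT KL 2 and 3. Their differences between the HSC groups were -2.04 (SE 0.17, limma adjusted p = 0.0174) and -3.69 (SE 0.45, limma adjusted p = 0.0421). Epor, the erythropoietin receptor gene, and Ermap, an erythroid membrane protein gene, were the others, at -1.36 and -4.35 (limma adjusted p = 0.0386 and 0.03). Of 13 alternatives, these 4 calls were made in 6 for Gata1, 4 for Epor and 3 each for Klf1 and Ermap, with the same sign in all. Over the 9 libraries as labelled, these differences were -2.85, -4.61, -1.96 and -5.14 for Gata1, Klf1, Epor and Ermap, without a call. The limma adjusted p was 0.742 for Ermap and 0.791 for Gata1, Klf1 and Epor. In that fit no erythroid gene was called against WT KL either. Against WT KL over 7 libraries, 1 erythroid gene, Hbb-bt, was higher and 6 were lower in Evi1 HSC (median -3.88). Of all tested genes, 31.9% were higher and 13.9% lower in that comparison. The erythroid counts in WT HSC were likewise 1, again Hbb-bt, and 6 (median -2.19), where 27.3% of all tested genes were higher and 10.4% lower. Summed over 7 mast cell and basophil genes it was 18.9 TPM in the library labelled WT HSC 3 and 20.0 and 8.94 TPM in WT KL 2 and 3, and under 1 TPM in the other 6. The part of all these cells in the values of the 10 genes was not tested.

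**Figure D4:**
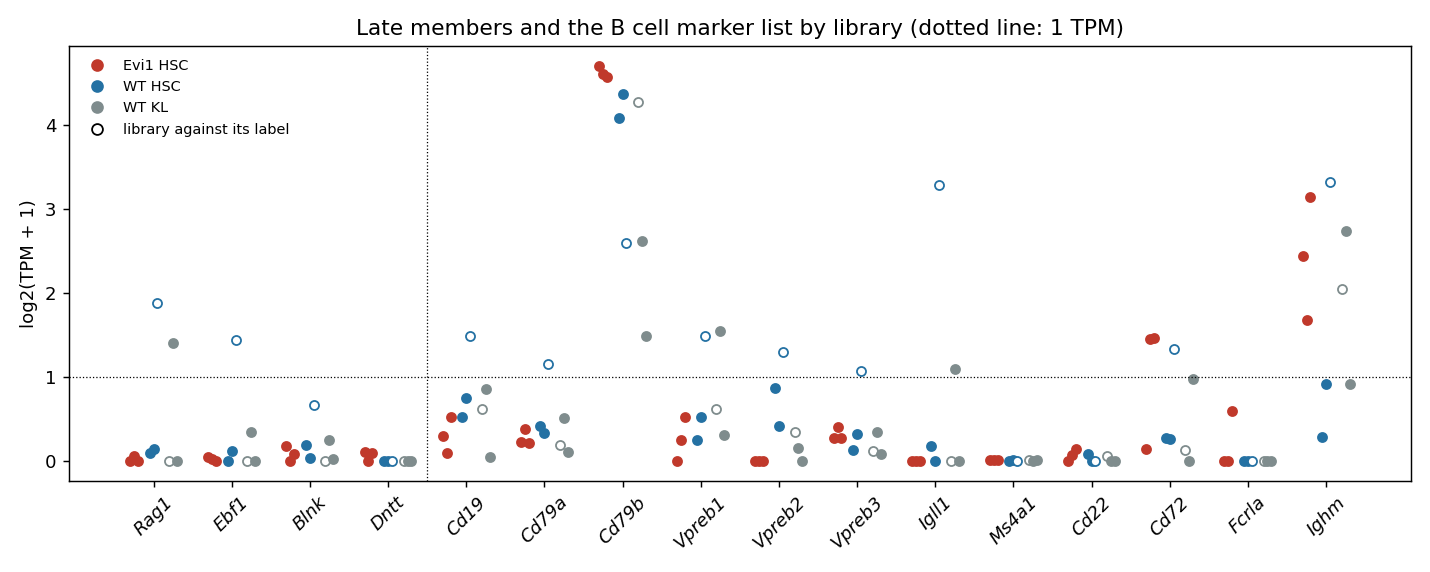
Level as log2(TPM + 1) of Rag1, Ebf1, Blnk, Dntt and the 12 B cell markers in each of the 9 libraries. Rag1, Ebf1 and Igll1 pass 1 TPM together in the library labelled WT HSC 3, Rag1 and Igll1 also in WT KL 2, and Cd79b is seen in all 9.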

How the data were processed

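RNA levels came from 9 libraries, 3 per group, grouped by their titles. The deposited values are TPM per gene, as the authors made them, 1 library per file, per the file headers, except that 1 value column (WT HSC 2) is headed C_H3 and was used as TPM. The submitters' processing notes name HISAT2, StringTie and mm10. No source used here gives their roles, versions or strand use. TPM keeps no read depth, so depth is unknown. Listed genes made up 56.9 to 63.8% of the TPM scale. The members and gene lists were chosen with earlier results of these data known.

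Values were fitted as log2(TPM + 1), which understates changes of low genes, with limma 3.58.1 in R 4.3.3, a mean per group, a mean-expression trend and Benjamini-Hochberg adjustment over all tested genes, those at 1 TPM or more in at least 3 libraries of the fit (19461 over 9 libraries, 18943 over 7). The scripts were tested on simulated data. All members are named. Of each related list, at most 3 called genes with the smallest adjusted p in the 7-library fit are named. Any called between the HSC groups are named too. Other genes were chosen after their values were seen. Among them are Il7r, Cd79a, Ighm, Cd72, Igll1, Tox, Rora, Zbtb16, Hbb-bt, Slc4a1, Alas2 and the Cd2 and Cd3 genes. Alternatives were another pseudocount, filter, scaling, trend setting and sample set, a replicate block and leaving out each library.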

Additional observations from a re-analysis of the deposited data

How the results depend on the processing

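No member was called in any fit over 9 libraries under the 6 other settings or when any library was left out, and none in Evi1 HSC against WT HSC over 7. Over 7 libraries, 4 members were called in WT HSC against WT KL (3 to 4 when each library was left out) and 5 in Evi1 HSC against WT KL (4 to 5), and the other settings gave 4 and 5. Tcf7 was the member whose call was lost. Between the HSC groups the sign of Satb1 over 7 libraries turned to 0.0388 with the replicate block, 0.13 without Evi1 HSC 1, 0.10 without Evi1 HSC 3 and 0.55 without WT HSC 2 (-0.59 to 0.55 over all libraries left out). Over 9 libraries it turned to -0.0195 without WT HSC 3 (range -0.0195 to 1.77), and Tcf7 to -0.0135 without Evi1 HSC 3 and -0.23 without WT HSC 3 (range -0.23 to 0.29). In WT HSC against WT KL, Ikzf1 turned to 0.17 over 7 libraries without WT HSC 2 (range -0.27 to 0.17), and over 9 to 0.0239 without WT HSC 2 and 0.0651 without WT KL 1 (range -0.26 to 0.0651). Over 9, Satb1 there turned to -0.22 without WT HSC 2 (range -0.22 to 1.57). The cause of these turns was not tested, and no value that turned was called. A replicate left alone in its group was assumed to vary like the others.

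Members on in WT HSC numbered 5 without the 2 libraries against their labels, or without WT HSC 3, and members on in WT KL numbered 5 at a threshold of 0.1 TPM. Over all genes, 39 were called in Evi1 HSC against WT HSC over 7 libraries, with 5 to 26 when a library was left out, 6 with only the compared groups and 0 with the replicate block. In WT HSC against WT KL the count was 7143 (4198 to 7160 without a library), and in Evi1 HSC against WT KL 8663 (5554 to 8527). Rescaling each library changed the median of all genes by under 0.1. With a pseudocount of 0.1 the fold changes over WT KL were 6.94 in Evi1 HSC and 6.70 in WT HSC for Ltb, and 1.86 in Evi1 HSC and 2.24 in WT HSC for Tcf7, against 0.79 and 1.02 as reported.

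Deviations of same-numbered libraries from their group means had correlations of -0.636 to 0.704 over 9 libraries and -0.0707 to -0.0068 over 7. Over 9, the 2 libraries against their labels shift the group means. Over 7, each WT group holds 2 libraries, whose deviations mirror each other. These values therefore cannot settle whether the replicate numbers pair the libraries. Ddx3y was at 25.3 TPM in WT HSC 1 and 0 in WT KL 1, and at 0 in WT HSC 2 and 14.1 TPM in WT KL 2. These same-numbered WT libraries thus differed in sex and did not come from a single embryo. Whether the numbers pair libraries in another way is unknown. With the replicate number as a block, members called over 7 libraries stayed at 0, 4 and 5, in the order HSC groups, WT HSC over WT KL, Evi1 HSC over WT KL, and 0 over 9. Depth is unknown, so what it limits could not be stated.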

Other observations

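Some genes of the related lists had their highest values in Evi1 HSC without a call against WT HSC, and they were picked after their values were seen. Notch1, a receptor that directs T lineage choice, had 43.9, 24.6 and 50.9 TPM in Evi1 HSC, against 17.9, 18.3 and 3.98 TPM in WT HSC and 16.5, 2.87 and 4.37 TPM in WT KL. All 3 Evi1 HSC libraries lay above the 3 libraries labelled WT HSC, as they did for 9.19% of all genes tested over 9 libraries. The log2 fold change of Notch1 over WT HSC was 1.03 in the 7-library limma fit, with an adjusted p of 0.437. Tcf7l2, another TCF family gene, had 13.9, 10.03 and 7.30 TPM in Evi1 HSC, against 3.58, 5.18 and 0.441 TPM in WT HSC and 3.75, 0.548 and 0.533 TPM in WT KL. Its difference from WT HSC was 1.06, with a limma adjusted p of 0.349. Hes1, a Notch target, had 1.84, 0.961 and 1.34 TPM in Evi1 HSC, against 0.164, 0.266 and 0 TPM in WT HSC and 0.306, 0.0376 and 0 TPM in WT KL, and did not pass the filter in the 7-library fit.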
